A study of Homo sapiens with 3 samples.

Results

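The transcripts described here are those of AKR1C1, AKR1C2 and AKR1C3, which encode aldo-keto reductases, and of 7 antioxidant genes that are textbook targets of the transcription factor NRF2, namely NQO1, GCLM, GCLC, TXNRD1, SRXN1, HMOX1 and SLC7A11. These 10 genes, of 61550 in the deposited gene table, were found by their symbol, and all 10 were among the 15483 genes with enough counts to be tested. The group was selected on measured values of the same data, because the AKR1C genes were higher in FLI1-knockout (KO) than in wild-type (WT) cells, and the question was whether other NRF2 targets shared that difference. The KO against WT values of these 10 genes are therefore a description with no test. Genes outside the group were not picked by that rule but share the same WT library and were listed with earlier results known, and the comparison of one KO library with the other did not use WT.

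Poly-A RNA-seq was run on HK1, a cell line established from a nasopharyngeal carcinoma, and every library was made after the cells had shared a culture with activated CD8+ T cells. There were 3 libraries, 1 from WT cells and 2 from FLI1 KO cells made with separate single guide RNAs, sgFLI1-1 and sgFLI1-2, and FLI1 is an ETS-family transcription factor. Neither the labels nor the methods say whether a KO line is 1 clone or whether the libraries came from separate cultures, so p-values measure only the spread between these libraries, which may be technical, and the WT group had no replicate. Values are given in the order WT, sgFLI1-1, sgFLI1-2 throughout. In bulk RNA, fewer cells of a type and less RNA per cell cannot be told apart.

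NRF2 is held low in resting cells by KEAP1, an adaptor of a CUL3 ubiquitin ligase that senses electrophiles and oxidants. When KEAP1 is modified, NRF2 accumulates, pairs with a small MAF protein and binds antioxidant response elements near genes for glutathione synthesis, thioredoxin recycling, quinone reduction, haem breakdown and NADPH supply. In many human carcinoma lines the AKR1C genes are among the transcripts that respond most to NRF2, and their enzymes use NADPH to reduce steroids, prostaglandins and reactive carbonyls.

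The AKR1C genes lie side by side on chromosome 10 (GRCh38). AKR1C1 (ENSG00000187134) spans 4963253 to 4983283 on the plus strand, AKR1C2 (ENSG00000151632) 4987775 to 5018031 on the minus strand and AKR1C3 (ENSG00000196139) 5035354 to 5107686 on the plus strand. Their coding sequences are close copies of each other. Over 969 coding bases of the canonical GENCODE transcripts, AKR1C1 and AKR1C2 were 98.0% identical and AKR1C1 and AKR1C3 91.4%. Of the 870 stretches of 100 bases in the AKR1C1 coding sequence, 18.9% occurred unchanged in AKR1C2 and 2.18% in AKR1C3, so reads from the first pair in particular may have been assigned to either gene. The methods describe paired-end reads longer than these stretches, and sequence outside the coding part was not compared. The share of reads that fit both genes was therefore not measured.

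The upstream sequences of the AKR1C genes are shown because the first pair, which differed in how it split between the KO libraries, was nearly identical there. These are the 150 bases before the RefSeq start (GRCh38.p14) that coincides with the canonical GENCODE transcript. The spans given above also cover transcripts that begin farther upstream, so each stretch lies within its gene's span, and for AKR1C3 the canonical start was taken out of 2 RefSeq starts. Capitals mark letters that differ from the aligned AKR1C1 letter or fall in a gap of AKR1C1, and the closing attt of AKR1C2 lies past the end of the alignment and was not compared.
AKR1C1, chr10:4963265-4963414, plus strand: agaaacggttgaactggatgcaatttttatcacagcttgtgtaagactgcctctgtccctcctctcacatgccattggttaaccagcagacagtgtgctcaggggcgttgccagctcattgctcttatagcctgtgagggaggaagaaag
AKR1C2, chr10:5003858-5004007, minus strand: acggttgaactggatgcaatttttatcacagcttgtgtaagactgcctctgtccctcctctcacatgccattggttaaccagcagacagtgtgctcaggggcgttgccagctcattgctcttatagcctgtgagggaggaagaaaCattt
AKR1C3, chr10:5094264-5094413, plus strand: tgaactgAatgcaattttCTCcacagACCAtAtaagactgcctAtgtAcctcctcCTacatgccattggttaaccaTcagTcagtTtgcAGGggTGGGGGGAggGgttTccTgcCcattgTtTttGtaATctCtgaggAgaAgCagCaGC
Over 250 upstream bases, AKR1C1 and AKR1C2 shared 245 of 246 aligned letters (99.6%), and AKR1C1 and AKR1C3 shared 184 of 250 (73.6%).

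The core of the antioxidant response element, searched as TGACNNNGC on both strands, occurred in 4687 of 35116 RefSeq windows that run from 250 bases before to 50 after a gene start (13.3%). Of the 10 genes 8 had such a window, HMOX1 and SLC7A11 being without one. A match was found for 2 of these 8, GCLM and TXNRD1, and for 0 of the 3 AKR1C genes, beside 16.1% of all gene symbols with a window. The matches are shown with 10 bases to each side and the core in capitals.
GCLM, chr1:93909446-93909474, plus strand: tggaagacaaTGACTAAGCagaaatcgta
TXNRD1, chr12:104215670-104215698, plus strand: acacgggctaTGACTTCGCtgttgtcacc
TXNRD1, chr12:104215761-104215789, minus strand: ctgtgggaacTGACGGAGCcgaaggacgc
TXNRD1 at another start, chr12:104286920-104286948, minus strand: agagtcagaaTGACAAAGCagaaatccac
A match is a stretch of letters and not a measured binding site, and a window without a match says only that these letters are not within it.

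The libraries held 22172158, 23904587 and 22409203 gene counts. FLI1 had 125, 11 and 109 counts, so the library labelled sgFLI1-2 kept FLI1 mRNA near the WT level, and every direction given here for it rests on its label. Of 18 T cell markers, 12 were at 0 counts in all 3 libraries, CD3D, CD3E, CD8A and CD8B among them. The whole list summed to 78, 11 and 87 counts, with sgFLI1-1 lowest. In WT and sgFLI1-2 most of these were IL2RB (26, 4 and 57 counts) and CD7 (36, 0 and 13 counts). Those genes went opposite ways between WT and sgFLI1-2, so the sums do not measure T cell content. Of 14 epithelial markers, KRT8 (936, 1020 and 1029 FPKM) and KRT18 (628, 748 and 797 FPKM) were abundant, and SFN (2322, 1778 and 1659 counts), KRT17 (26.8, 19.8 and 17.2 FPKM) and DSP (9.61, 10.6 and 11.3 FPKM) were expressed. The squamous markers KRT5 (8, 0 and 7 counts), TP63 (5, 0 and 0 counts) and PKP1 (0 in all) were nearly absent, as were KRT14, KRT6A and CDH1 (at most 44 counts). Of the 11 epithelial markers that could be tested, PERP rose (4382, 9973 and 9126 counts) and KRT19 fell (330, 34 and 86 counts), and their part in the values given here was not tested. The edgeR quasi-likelihood test called 283 genes higher (1.83% of those tested) and 457 lower (2.95%) in FLI1 KO, at an adjusted p under 0.05 and at least a 2-fold difference.

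All 3 expressed AKR1C genes were higher in both KO libraries than in WT, and the NRF2 antioxidant genes did not follow as a group. Of the 10 genes, 3 were called higher (AKR1C1, AKR1C2 and AKR1C3; 1.83% of all tested genes) and 0 lower (2.95%), counts from which nothing is read because the same contrast chose the genes. The median edgeR log2 difference was 1.71 over the AKR1C genes, -0.32 over the other 7 and 0.00 over all genes tested. Among those 7, the differences ran from -0.79 (GCLM) to 0.58 (NQO1), with 2 above and 5 below 0.

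AKR1C1, an enzyme best known for inactivating progesterone, was the most abundant of the 3 and had 7899, 28173 and 25669 counts. Its levels were 88.3 FPKM (fragments scaled to transcript length and library size) in WT, 325 with sgFLI1-1 and 318 with sgFLI1-2. Both KO libraries stood far above WT and close to each other. The KO mean was 321 ± 5.23 FPKM (SD, n = 2), and the edgeR log2 difference from WT was 1.71 (SE 0.16), a 3.27-fold higher level.

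AKR1C3, which forms testosterone from androstenedione and also reduces prostaglandins, had 1435, 7668 and 5395 counts, or 53.3, 258 and 205 FPKM. Both KO libraries were again above WT, with sgFLI1-1 the higher. The KO mean was 231 ± 37.1 FPKM (SD, n = 2) and the edgeR log2 difference 2.12 (SE 0.23), a 4.35-fold higher level and the largest of the 10 genes.

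AKR1C2, which reduces the androgen dihydrotestosterone, was far less abundant, with 506, 1147 and 2062 counts, or 7.53, 15.1 and 27.2 FPKM. The KO libraries were both above WT but apart from each other. The KO mean was 21.2 ± 8.55 FPKM (SD, n = 2) and the edgeR log2 difference 1.62 (SE 0.33), and AKR1C2 was the AKR1C gene that DESeq2 did not call.

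On log2(FPKM + 1), a scale that understates the differences of low genes, AKR1C1 differed from WT by 1.87 and 1.84, AKR1C3 by 2.25 and 1.93 and AKR1C2 by 0.92 and 1.72. By a rule of size, at least 2-fold on this scale in both KO libraries, 2 of the 10 genes were higher (0.988% of all tested genes met it) and 0 lower (1.83%). AKR1C2 missed the rule through the sgFLI1-1 library alone, where its FPKM was 2.01-fold that of WT before 1 was added. With CPM (counts scaled to library size) in place of FPKM, 3 of the 10 genes met the rule, and with a pseudocount of 0.1 again 2. AKR1C4, the liver member of the family, had 1, 0 and 0 counts, which is under the floor of 3 counts, and no fold was taken from it.

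**Figure D1:**
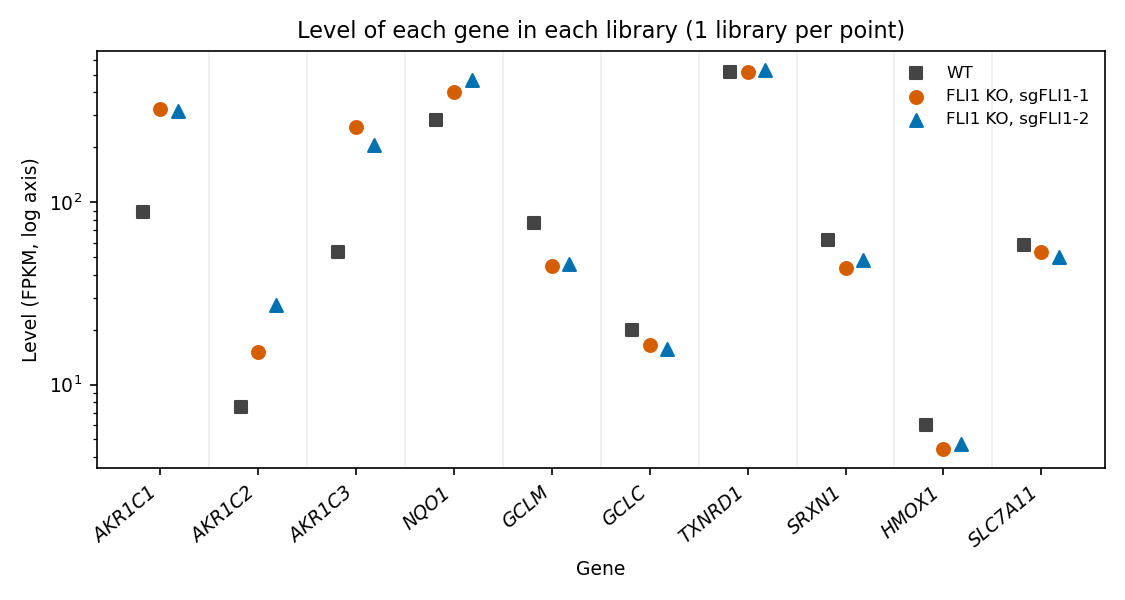
Level in FPKM (log axis) of the 10 genes, with 1 point for each library and no error bars since each point is a single library. AKR1C1, AKR1C2 and AKR1C3 lie above WT in both KO libraries (AKR1C1 at 88.3, 325 and 318 FPKM), whereas GCLM, GCLC, SRXN1, HMOX1 and SLC7A11 lie below it and TXNRD1 is level.

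Because reads of the near-identical genes can be assigned to one another, the 3 AKR1C genes were also summed. The sum was 9840, 36988 and 33126 counts, or 0.0444%, 0.155% and 0.148% of each library. Relative to WT this was 3.52-fold with sgFLI1-1 (log2 ratio of counts per library size 1.82, 95% exact binomial interval 1.78 to 1.85) and 3.31-fold with sgFLI1-2 (1.73, interval 1.69 to 1.76). These and all later intervals cover counting error only. The AKR1C1 and AKR1C2 counts added together gave 3.27-fold and 3.25-fold, alike with both guides. Most of the pair's counts were AKR1C1, which alone stood at 3.34-fold and 3.20-fold, so the pair's sum says little of AKR1C2. The part of read assignment in the AKR1C2 difference between the guides was not tested.

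The make-up of the sum shifted between the libraries. AKR1C1 gave 80.3% of the AKR1C counts in WT, 76.2% with sgFLI1-1 and 77.5% with sgFLI1-2. AKR1C3 gave 14.6% (Wilson 95% interval 13.9 to 15.3), 20.7% (20.3 to 21.1) and 16.3% (15.9 to 16.7), higher in both KO libraries beyond counting error. AKR1C2 gave 5.14% (4.72 to 5.60), 3.10% (2.93 to 3.28) and 6.22% (5.97 to 6.49). By counts it was thus below the WT share with sgFLI1-1 and above it with sgFLI1-2. Of the summed FPKM, which are scaled to transcript length, AKR1C1 held 59.2%, 54.4% and 57.7%. AKR1C3 held 35.7%, 43.1% and 37.3%, and AKR1C2 5.05%, 2.53% and 4.95%. By FPKM the AKR1C2 share with sgFLI1-2 was therefore not above that of WT.

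**Figure D2:**
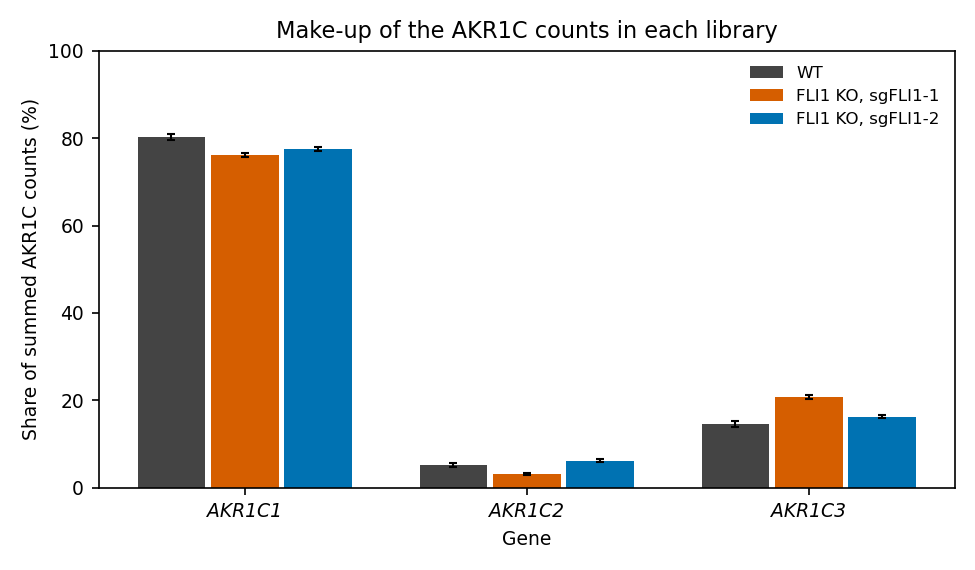
Share of the summed AKR1C counts (percent) held by each gene in each library, with bars for the share and error bars for the Wilson 95% interval, which covers counting error only. AKR1C1 holds most of the counts in every library, and AKR1C2 has its lowest share (3.10%) with sgFLI1-1.

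The comparison of one KO library with the other did not choose these genes. AKR1C2 was 1.89-fold higher with sgFLI1-2 than with sgFLI1-1 (log2 ratio 0.92, 95% exact binomial interval 0.81 to 1.02). Of 7421 genes with at least 500 counts in a KO library, 67 (0.903%) were as far apart or farther. AKR1C3 went the other way, 1.35-fold higher with sgFLI1-1 (log2 ratio -0.44, interval -0.49 to -0.39), a gap that 7.78% of the genes reached. AKR1C1 differed by 0.06 on the log2 scale in favour of sgFLI1-1, which 78.3% of genes matched or exceeded. With 1 library for each guide, no test of these gaps was possible.

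Counts and FPKM gave the same order of libraries for AKR1C1, AKR1C2 and AKR1C3. Relative to the median gene, a unit of FPKM stood for 0.910 and 0.907 times as many AKR1C1 counts in the KO libraries as in WT, and for 1.06 and 1.13 times as many AKR1C2 counts. For AKR1C3 the values were 1.04 and 0.979.

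The neighbours of the AKR1C genes stayed near the WT level. Among 16 genes with at least 5 FPKM within 5 Mb, the median log2(FPKM + 1) difference from WT was -0.04 with sgFLI1-1 and -0.13 with sgFLI1-2. Within 300 kb, MANCR (22, 11 and 16 counts), a long noncoding RNA, was the only other gene to pass the filter on low counts, and the related genes AKR1E2 and AKR1C8 had 0 counts in every library.

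NQO1 was the antioxidant gene nearest to the AKR1C pattern. It encodes the quinone reductase most used as a readout of NRF2 and lies on chromosome 16 (69706996 to 69726668, minus strand). Its levels were 281, 400 and 469 FPKM, from 16590, 24559 and 26874 counts. Both KO libraries were above WT, by 1.39-fold and 1.59-fold in counts per library size (log2 ratios 0.47 and 0.67, intervals 0.44 to 0.50 and 0.64 to 0.70). The edgeR log2 difference was 0.58 (SE 0.15), short of the 2-fold threshold, and NQO1 was not called without that threshold either.

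The glutathione genes of the group were lower. GCLM (chromosome 1, 93885199 to 93909456, minus strand), the modifier subunit of glutamate-cysteine ligase, had 77.3, 44.8 and 45.8 FPKM. The KO libraries were nearly equal, at 57.7% and 58.0% of WT in counts per library size, and the edgeR log2 difference of -0.79 (SE 0.16) was the lowest of the 10 genes. GCLC (chromosome 6, 53497341 to 53616970, minus strand), the catalytic subunit, had 19.9, 16.5 and 15.6 FPKM, or 82.9% and 77.6% of WT. SLC7A11 (chromosome 4, 138164097 to 138242349, minus strand), the cystine transporter that feeds the pathway and also a target of ATF4, had 57.9, 53.2 and 50.3 FPKM, or 91.4% and 85.1% of WT. All 3 were lower than WT in both KO libraries, by more than counting error and by less than 2-fold.

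The thioredoxin genes were level or lower. TXNRD1 (chromosome 12, 104215779 to 104350307, plus strand), the cytosolic thioredoxin reductase and the most abundant gene of the group, had 517, 519 and 532 FPKM. Its log2 ratios to WT were 0.05 and 0.03, so the 3 libraries differed by under 4%. SRXN1 (chromosome 20, 646615 to 653200, minus strand), sulfiredoxin, which restores overoxidised peroxiredoxins, had 62.3, 43.6 and 48.5 FPKM, or 69.6% and 76.1% of WT.

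HMOX1 (chromosome 22, 35380361 to 35394214, plus strand), the inducible haem oxygenase, was the least abundant of the 10 in every library at 5.98, 4.42 and 4.70 FPKM. It had 224, 181 and 182 counts. The KO libraries stood at 75.7% and 79.9% of WT, with log2 ratios of -0.40 (interval -0.69 to -0.11) and -0.32 (-0.61 to -0.03), so at this depth the difference only just exceeded counting error. The 70 expressed genes within 5 Mb of HMOX1 had a median log2(FPKM + 1) difference of -0.05 over both KO libraries, and those within 2 Mb -0.33. Around the rest of the antioxidant genes, medians ran from -0.06 (SRXN1) to 0.17 (GCLC) within 5 Mb. Within 2 Mb they ran from -0.07 (SRXN1) to 0.24 (GCLC). Around GCLM the 5 Mb median was 0.02 with a lower quartile of -1.19. The part of neighbours in these levels was not tested.

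Between the guides, none of the 7 antioxidant genes was as far apart as AKR1C2 or AKR1C3. The widest gaps were those of NQO1 (log2 ratio of sgFLI1-2 to sgFLI1-1 0.20, interval 0.18 to 0.23) and SRXN1 (0.13, interval 0.06 to 0.20). GCLM differed by 0.01 on the log2 scale.

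**Figure D3:**
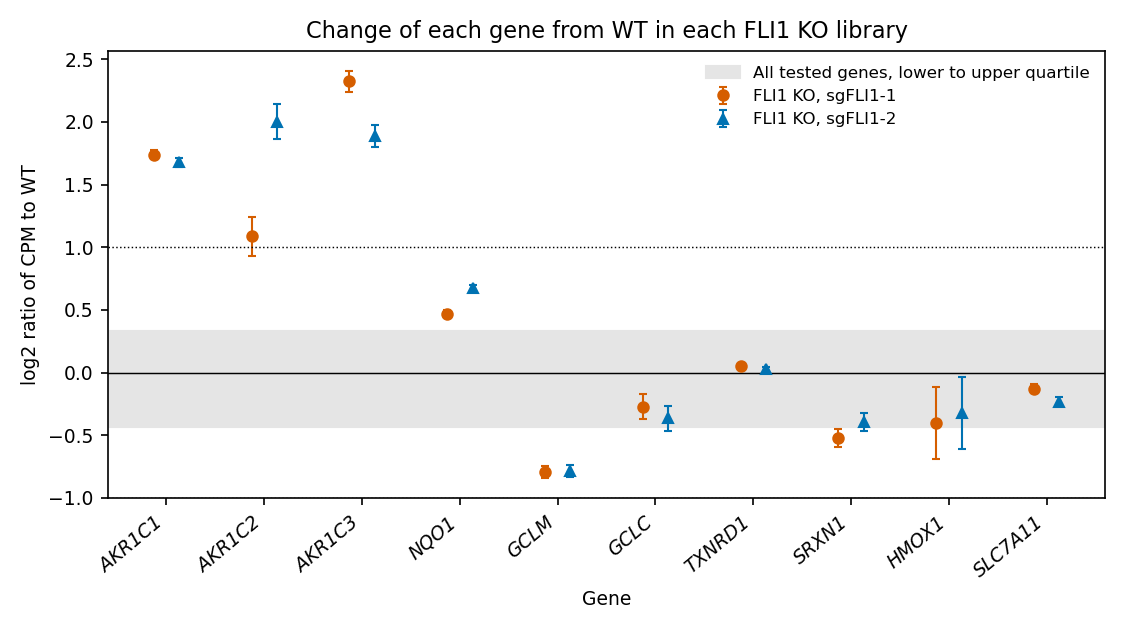
Log2 ratio of counts scaled to library size (CPM) in each KO library to WT for the 10 genes, with 95% exact binomial intervals that cover counting error only. The grey band runs from the lower to the upper quartile of all tested genes (widest bounds over both libraries) and dotted lines mark 2-fold. The AKR1C points lie at or above 1.09, NQO1 at 0.47 and 0.67, and GCLM at -0.79 in both libraries.

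Outside these genes, transcripts of the NRF2 regulators were not called in either direction, 0 of 13 with edgeR and 0 with DESeq2, while 5 (38.5%) were higher and 1 (7.69%) lower at an unadjusted edgeR p under 0.05, beside 9.63% and 11.1% of all tested genes. NFE2L2, the gene of NRF2 itself, had 44.6, 50.9 and 41.8 FPKM, so WT lay between the KO libraries (edgeR log2 fold change 0.04, SE 0.19, adjusted p = 0.929). KEAP1 had 17.0, 15.4 and 15.8 FPKM (-0.14, SE 0.18, edgeR adjusted p = 0.723). NRF2 is controlled largely through protein stability, which these data do not measure. The ligase subunits CUL3 and RBX1 had log2 fold changes of 0.41 and 0.30. BTRC and GSK3B, which serve a second route of NRF2 degradation, had 0.08 and 0.48.

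BACH1, a repressor that competes with NRF2 at response elements, had 13.6, 9.40 and 7.70 FPKM and missed the threshold (edgeR log2 fold change -0.69, SE 0.19, adjusted p = 0.0547). SQSTM1, which encodes the autophagy receptor that sequesters KEAP1, had 218, 337 and 332 FPKM and also missed it (0.54, SE 0.15, edgeR adjusted p = 0.0547). The DESeq2 adjusted p was 0.0320 for SQSTM1 and 0.0839 for BACH1, and with the 2-fold threshold DESeq2 called neither. Of the small MAF partners, MAFK had a log2 fold change of 0.58, MAFG 0.05 and MAFF -0.21, and the related factor NFE2L1 had -0.12. BACH2 was at the edge of detection, with 15, 58 and 34 counts (edgeR adjusted p = 0.205).

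Across the lists of NRF2 regulators and target families together, with the 10 genes left out, 114 of 127 genes could be tested. Of these, 2 rose (1.75%, beside 1.83% of all genes) and 4 fell (3.51%, beside 2.95%), and the median edgeR log2 fold change was 0.08 (0.00 over all genes). The called shares were close to those of all genes in both directions. At an unadjusted edgeR p under 0.05 and with no fold threshold, 22 (19.3%) were higher and 15 (13.2%) lower, beside 9.63% and 11.1% of all genes. At an unadjusted DESeq2 p the shares were 15.8% and 11.4%, beside 6.66% and 6.63% of all genes. No test compared the lists with other genes. With edgeR and no filter on low counts, 0 of the list genes were called higher and 1 lower, while 14 (11.6% of 121) were higher and 15 (12.4%) lower at an unadjusted p under 0.05, beside 4.95% and 5.63% of all genes in that fit.

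The genes that rose were AKR1B1 and FTH1. AKR1B1, aldose reductase and a relative of the AKR1C enzymes, had 143, 361 and 260 FPKM (edgeR log2 fold change 1.09, SE 0.22, adjusted p = 0.0131). It lies on chromosome 7, where expressed neighbours within 5 Mb were lower rather than higher (medians -0.31 and -0.37). FTH1, the ferritin heavy chain that stores iron, had 2550, 6348 and 4530 FPKM (1.07, SE 0.18, edgeR adjusted p = 0.00569), and FTH1 has processed pseudogenes that can share its reads. Its partner FTL had 3119, 5120 and 3940 FPKM and did not pass (0.52, edgeR adjusted p = 0.0875).

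The genes that fell were enzymes of detoxification and protein repair. GSTK1, a glutathione transferase of mitochondria and peroxisomes, had 77.1, 18.8 and 16.1 FPKM (edgeR log2 fold change -2.19, SE 0.19, adjusted p = 5.7e-05), and its neighbours on chromosome 7 had medians of -0.45 and -0.51. MSRB1, a selenoprotein that reduces oxidised methionine, had 90.5, 21.8 and 22.3 FPKM (-2.05, SE 0.17, edgeR adjusted p = 3.6e-05). CBR3, a carbonyl reductase, had 25.5, 10.2 and 10.8 FPKM (-1.30, SE 0.21, edgeR adjusted p = 0.00360). ALDH3A1, an aldehyde dehydrogenase known as a target of both NRF2 and the aryl hydrocarbon receptor, had 88, 19 and 29 counts (-1.92, SE 0.51, edgeR adjusted p = 0.0476) and was not called by DESeq2.

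By family, the shares to read against are those of all tested genes, 1.83% called higher and 2.95% lower with edgeR. At an unadjusted edgeR p under 0.05 they were 9.63% and 11.1%. Of 22 tested glutathione genes, 0 rose and 1 (4.55%) fell with edgeR and with DESeq2 alike. At an unadjusted edgeR p, 2 were higher and 2 lower (9.09% each). Of 17 thioredoxin and peroxiredoxin genes 0 rose and 1 (5.88%) fell, again with both tools. At an unadjusted edgeR p, 6 (35.3%) were higher and 2 (11.8%) lower. Of 20 quinone, carbonyl and conjugation genes 1 (5%) rose and 2 (10%) fell with edgeR, and 1 rose and 1 fell with DESeq2. At an unadjusted edgeR p, 3 (15%) were higher and 4 (20%) lower. Of 10 haem and iron genes 1 (10%) rose and 0 fell with edgeR and with DESeq2. At an unadjusted edgeR p, 4 (40%) were higher and 1 (10%) lower. Of 14 NADPH supply genes 0 were called with edgeR or DESeq2. At an unadjusted edgeR p, 1 (7.14%) was higher and 2 (14.3%) lower. Without the fold threshold 1 of the 14 passed the adjusted p as lower, beside 661 of all 15483 tested genes. This was MTHFD2, a mitochondrial folate enzyme, with 103, 68.6 and 56.4 FPKM (-0.73, SE 0.18, edgeR adjusted p = 0.0322), while ME1, malic enzyme, had 2783, 4810 and 3947 counts (0.59, edgeR adjusted p = 0.0884). Of 18 efflux and other target genes 0 were called by either tool. At an unadjusted edgeR p, 1 (5.56%) was higher and 3 (16.7%) lower. The most changed were SLC6A9, a glycine transporter (-0.86, edgeR adjusted p = 0.0395), and ABHD4 (-0.82, edgeR adjusted p = 0.0434).

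**Figure D4:**
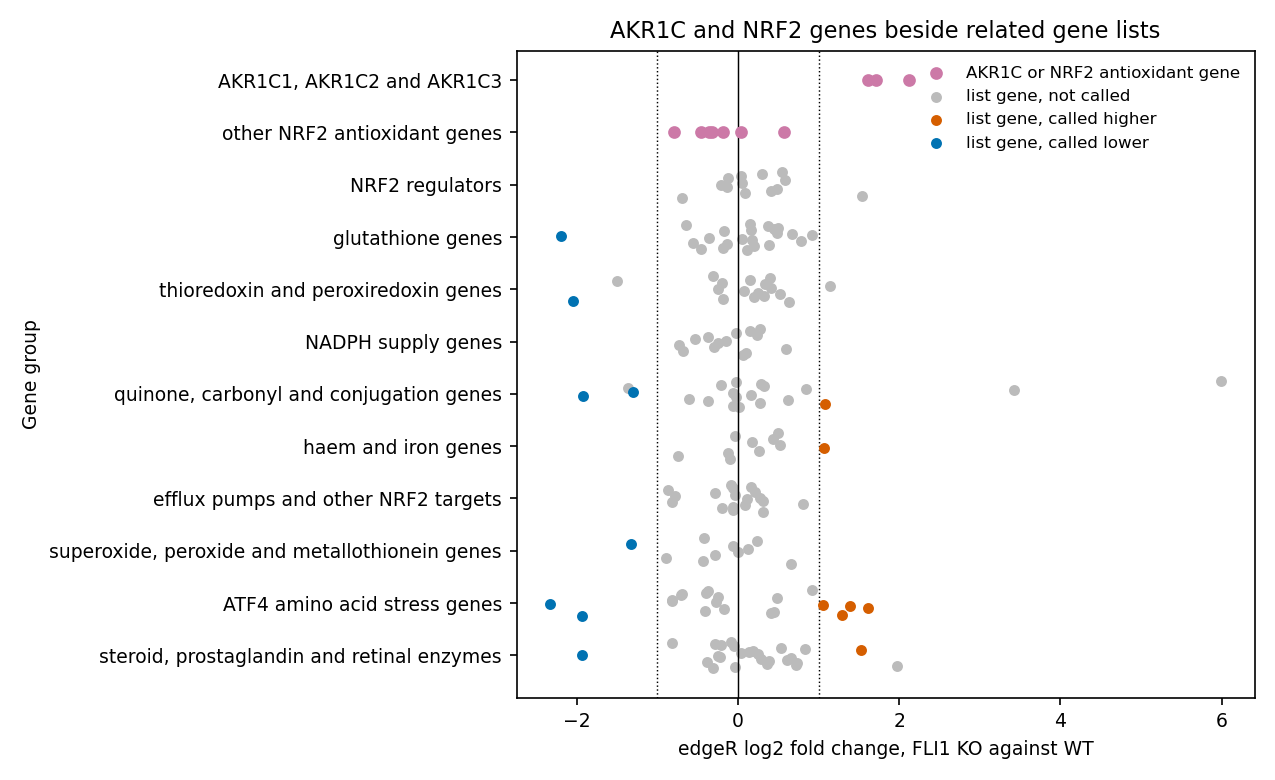
The edgeR log2 fold change of FLI1 KO against WT for the AKR1C and NRF2 antioxidant genes (purple, no test) and for the tested genes of 10 related lists, with 1 point per gene, orange for genes called higher and blue for genes called lower; vertical scatter only separates points and dotted lines mark 2-fold. The AKR1C genes lie between 1.62 and 2.12, while most genes of the NRF2 lists lie within 2-fold of WT.

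Lists beside the NRF2 families were read in the same way. Of 10 tested superoxide, peroxide and metallothionein genes, 1 (10%) fell and 0 rose with edgeR and with DESeq2. With edgeR 2.95% of all genes fell and 1.83% rose. At an unadjusted edgeR p under 0.05, 1 (10%) was higher and 2 (20%) lower, beside 9.63% and 11.1% of all genes. SOD2, the mitochondrial superoxide dismutase that also responds to inflammatory cytokines, fell with 10214, 4745 and 3748 counts (-1.33, SE 0.17, edgeR adjusted p = 0.000910). Of 20 ATF4 amino acid stress genes, the set that shares SLC7A11 as a target, 4 rose (20%, beside 1.83% of all genes) and 2 fell (10%, beside 2.95%). At an unadjusted edgeR p under 0.05, 6 (30%) were higher and 7 (35%) lower, beside 9.63% and 11.1% of all genes. Without the fold threshold, 4 passed the adjusted p as higher and 6 as lower, beside 405 and 661 of all 15483 tested genes. With no filter on low counts, edgeR called 0 of the ATF4 genes in either direction, beside 3 higher and 38 lower of all 26506 genes. At an unadjusted edgeR p under 0.05 in that fit, 5 (25%) were higher and 7 (35%) lower, beside 4.95% and 5.63% of all genes. DDIT4 (61.5, 149 and 111 FPKM) and the transcription factor ATF3 (5.48, 18.5 and 11.4 FPKM) rose, as did DDIT3 and CHAC1, a glutathione-degrading enzyme with 46, 168 and 126 counts. ASNS, asparagine synthetase, fell with 82.8, 28.4 and 18.8 FPKM, and its expressed neighbours on chromosome 7 had medians of -0.36 and -0.48. NUPR1 fell with 125, 37 and 15 counts. DESeq2 did not call DDIT3, CHAC1 or NUPR1.

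Among 26 tested enzymes of steroid, prostaglandin and retinal metabolism, the reactions in which the AKR1C enzymes take part, 1 rose (3.85%, beside 1.83% of all genes) and 1 fell (3.85%, beside 2.95%). At an unadjusted edgeR p under 0.05, 3 were higher and 3 lower (11.5% each), beside 9.63% and 11.1% of all genes. With no filter on low counts, edgeR called 0 in either direction, beside 3 higher and 38 lower of all 26506 genes. At an unadjusted edgeR p under 0.05 in that fit, 2 were higher and 2 lower (6.45% each), beside 4.95% and 5.63% of all genes. PTGS1, the constitutive cyclooxygenase, had 0.875, 2.21 and 2.94 FPKM (1.53, SE 0.32, edgeR adjusted p = 0.0156). HSD3B7, an enzyme of bile acid synthesis, had 114, 27 and 35 counts (-1.93, SE 0.45, edgeR adjusted p = 0.0273) and was not called by DESeq2. PTGES, the inducible prostaglandin E synthase, was abundant at 243, 281 and 303 FPKM and did not pass (0.25, edgeR adjusted p = 0.410).

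The genes whose pattern lay nearest to that of the AKR1C genes were taken from 8256 genes with a symbol and at least 5 FPKM in a library, by Euclidean distance between their 2 log2(FPKM + 1) differences and the AKR1C means (1.68 with sgFLI1-1 and 1.83 with sgFLI1-2), over 3 libraries. The 8 nearest, at distances of 0.03 to 0.27, were LINC02009, H1-2, KRT81, LINC01615, SFTA1P, FGFBP1, CXCL8 and HR. KRT81, a hair keratin, had 101, 313 and 341 FPKM, and the chemokine CXCL8 had 10.2, 39.6 and 42.5 FPKM. None of the 8 belonged to an NRF2 list used here. Those lists held 114 tested genes, few beside the 8256 candidates, so nothing is read from this count. No gene of the set was tested for its likeness.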

How the data were processed

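The labels name 3 libraries of HK1 cells. Per the labels, the authors used a NEBNext Ultra library kit, then fastp (0.23.2) for trimming, HISAT2 (2.0.4) for alignment to GRCh38.p12 and StringTie (1.3.4d) for transcript assembly. The authors deposited whole-number counts per gene, not normalized, and FPKM, scaled to gene length and library size; the counting tool and its use of strand are not given in the sources used here. Columns KO1 and KO2 were matched to sgFLI1-1 and sgFLI1-2 by that number. The table had 61550 genes and 2 empty lines.

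Counts were fitted with edgeR (4.0.16, R 4.3.3) by quasi-likelihood after TMM scaling and filterByExpr (minimum count 10), both KO libraries against WT, with 1 residual degree of freedom, and adjusted by Benjamini and Hochberg over 15483 genes. Each SE was the fold change (log2) divided by the root of the F statistic. The fit was also run on simulated counts, drawn for every library with the spread that the fit itself had estimated. That run could not check whether WT varies like the KO libraries. CPM was taken over the TMM-scaled library size. Sequences came from RefSeq, and coding lengths from GENCODE, whose gene coordinates equal the table's for these 10 genes. The alternatives tried were leaving out the filter, a minimum of 50 counts, median-of-ratios and upper-quartile scaling, DESeq2 (1.42.0), no fold threshold, 1.5-fold, a pseudocount of 0.1, CPM for FPKM, windows of 2 Mb, a minimum of 1 FPKM and leaving out each KO library.

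The genes and lists were chosen with earlier results of these data known. Named were the 10 genes, AKR1C4, FLI1, all NRF2 regulators, up to 4 called genes per list and direction (or the 2 most changed at 5 FPKM or more where none was called) and the 8 genes nearest in pattern; further genes are named for their role or after their values were seen.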

Additional observations from a re-analysis of the deposited data

How the results depend on the processing

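The AKR1C1, AKR1C2 and AKR1C3 differences and their sum kept their direction under every alternative. With no filter on low counts, which raised the genes tested to 26506, edgeR called 3 genes higher and 38 lower over all genes, 0 of the 10 genes higher, and 0 higher and 1 lower of the NRF2 lists (14 and 15 at an unadjusted p under 0.05), and 0 of the ATF4 and of the steroid, prostaglandin and retinal lists. With no fold threshold, 4 of 114 genes of the NRF2 lists were called higher and 8 lower, beside 405 and 661 of all 15483 tested genes. Of the 10 genes, AKR1C1, AKR1C2 and AKR1C3 were then called higher and GCLM lower. Leaving out 1 KO library left a count of genes at least 2-fold from WT with no test, 909 to 1047 higher and 1270 to 1612 lower over all genes, and 4 to 5 higher and 7 to 7 lower of the NRF2 lists. DESeq2 shared 563 of the 740 calls. No paired analysis was possible because the groups share fewer than 2 replicate numbers. With a single WT library, its spread was taken to equal that of the KO libraries, and an error of its own would enter every difference. Depth limited HMOX1, BACH2 and ALDH3A1, whose counts were low.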

Other observations

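A pair of detoxification genes outside the naming rule was picked after the values were seen. CES1, a carboxylesterase listed among NRF2 targets, had 28, 29 and 586 counts in WT, sgFLI1-1 and sgFLI1-2, so it was high in the sgFLI1-2 library alone and edgeR did not call it (log2 fold change 3.42, adjusted p = 0.165). UGT1A6, a glucuronosyltransferase, had 0, 11 and 5 counts and was not called either (edgeR adjusted p = 0.270). ABCG2, an efflux pump, had 7.75, 12.8 and 13.9 FPKM, and EPHX1, microsomal epoxide hydrolase, had 504, 973 and 915 counts. Both passed the adjusted p but not the 2-fold threshold (edgeR log2 fold changes 0.81 and 0.85, adjusted p = 0.0263 and 0.0254), and both were higher in 2 of 2 KO libraries. OSGIN1, an oxidative stress response gene, passed it in the other direction with 18.9, 10.1 and 12.2 FPKM (edgeR log2 fold change -0.78, adjusted p = 0.0425).

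The thioredoxin and peroxiredoxin genes held several small differences toward higher levels, also picked after the values were seen. PRDX1 had 894, 1089 and 1159 FPKM, PRDX2 had 103, 140 and 160 FPKM, PRDX6 had 196, 277 and 246 FPKM and TXN, thioredoxin itself, had 672, 869 and 856 FPKM. Their edgeR log2 fold changes lay between 0.32 (PRDX1) and 0.52 (PRDX2), and none passed the test (edgeR adjusted p = 0.226 for PRDX1 and 0.125 for PRDX2). All 4 were higher in 2 of 2 KO libraries. Other genes of the list were lower in both, among them PRDX5 (50.3, 44.7 and 40.1 FPKM), TXNRD3 (5.71, 5.23 and 4.48 FPKM) and TXNIP (116, 40 and 45 counts), and of the 17 tested 11 had a fold change above and 6 below WT.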
